A study of Drosophila melanogaster with 27 samples.

Results

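The genes described here are those whose messenger RNA peaked in the light phase in fly heads, both in the whole head extract and in the material bound to AGO1. They were chosen by their values in wild-type heads. A 24 h cosine curve was fitted to each probe set in each fraction, and a probe set was kept when its fitted peak-to-trough difference was at least 0.6 on the log2 scale and the curve took up at least 0.5 of the variance (R squared) in both fractions. Both fitted peaks had to lie between ZT0 and ZT12 (Zeitgeber time, hours after lights on), the mean extract level had to exceed 5, and the probe set had to carry 1 gene symbol. This gave 58 probe sets, and leaving out Clk, cry, GstZ2, Ugt302C1, Ugt35A1 and Ugt35B1 by name left 52, each of a different gene, out of 18769 probe sets that were not controls (13647 with 1 symbol, for 11982 genes). Of the 10256 probe sets above the level minimum, 0.975% met the conditions in the extract, 1.16% in the precipitate and 0.566%, the 58, in both. Because the wild-type rhythms chose the genes, those rhythms are given as a description with no test.

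The study immunoprecipitated AGO1, the Argonaute protein that holds microRNAs in flies, from head extracts of adult Drosophila melanogaster, and measured the extract (INPUT) and the precipitate (IP) on Affymetrix arrays. All flies were kept under light for 12 h and dark for 12 h each day. The wild-type group, for which the labels give no strain or allele, was sampled at ZT3, ZT7, ZT11, ZT15, ZT19 and ZT23 with 2 arrays per fraction and time, except 1 for INPUT at ZT3, which gave 11 INPUT and 12 IP arrays. The Tim-Dcr group, whose name the labels do not explain, had 1 INPUT and 1 IP array at ZT3 and the same at ZT15. The labels state neither the sex nor the exact age of the flies or how many heads were pooled, and no precipitate made with control serum was analysed here. All levels are deposited log2 expression values.

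In the fly clock, CLK and CYC drive transcription of per and tim, whose proteins return to shut it off, and a second loop through vri and Pdp1 times Clk itself to the other end of the day. Transcripts driven directly by CLK and CYC peak around dusk and early night, while those timed like Clk peak around dawn, and light and feeding add further daily changes in the eye, brain and fat body. AGO1 carries microRNAs to complementary sites in messenger RNAs, so RNA recovered with it is enriched for microRNA targets and also holds RNA bound in passing.

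Median array levels were 6.08 to 6.16 in INPUT of the wild type, but 4.74 to 4.87 in its IP. IP minus INPUT therefore carried a general offset, and for wild type it is given below on arrays centred on their medians. Comparisons within Tim-Dcr and of Tim-Dcr with wild type are on deposited values, unless centred arrays are named. Tim-Dcr medians were lower, from 5.64 to 5.91 in INPUT and from 4.32 to 4.52 in IP. One wild-type IP array at ZT3 has a description that names ZT2, and with that time 51 genes met the rule, 50 of them among the 52. The rule gave 44 genes without the single INPUT array at ZT3, 41 of them shared, and 62 without the second INPUT array at ZT7, 50 of them shared. The spread between same-time arrays had a median SD of 0.20 in INPUT and 0.24 in IP for the 52 genes, against 0.18 and 0.19 over all 15517 probe sets tested.

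The fitted INPUT peak fell between ZT0 and ZT4 for 20 genes, between ZT4 and ZT8 for 16 and between ZT8 and ZT12 for 16. The peak-to-trough difference ran from 0.60 to 2.99 in INPUT (median 0.80) and from 0.63 to 3.99 in IP (median 0.91). It was larger in IP for 27 genes and larger in INPUT for 25, and 15 genes passed 2-fold in both fractions. The fitted peaks of the fractions lay within 1 h of each other for 39 genes and within 2 h for 51. The exception was IRSp53, an adaptor between actin and membranes, whose IP peak was 3.06 h before its INPUT peak. Just inside the amplitude threshold lay CG9427, trpl and CG8483, with the smaller of their differences at 0.60, 0.61 and 0.61. Just outside it lay CAH7, CG10184 and PsGEF, at 0.60, 0.59 and 0.59.

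**Figure D1:**
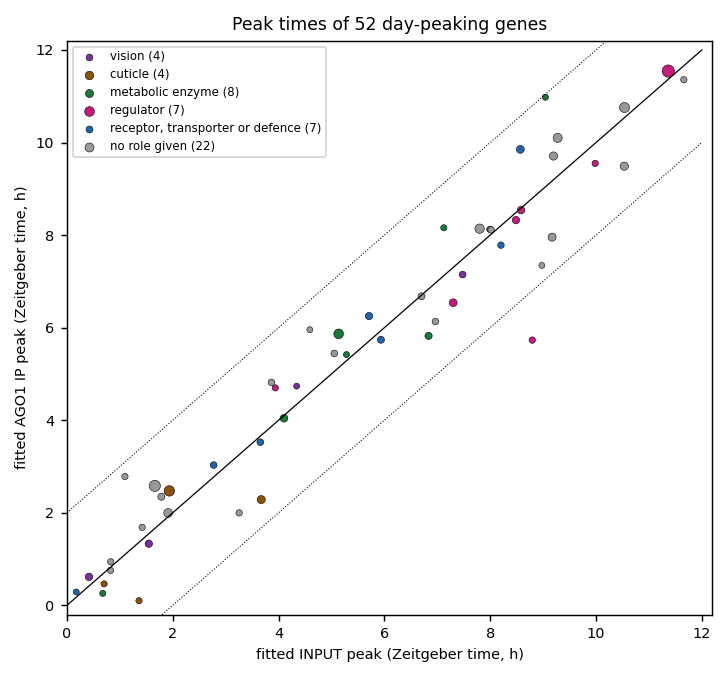
Fitted IP peak against fitted INPUT peak in hours of Zeitgeber time for the 52 genes, coloured by role and with point area growing with the smaller of the 2 peak-to-trough differences. The solid line marks equal times and the dotted lines 2 h to either side, and 51 of the 52 points lie between the dotted lines.

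By the smaller of its differences in the 2 fractions, the largest rhythm was that of Usp8, a deubiquitinating enzyme that acts on endosomal cargo and signalling receptors. In INPUT its levels were 8.11 at ZT3, 9.54 and 9.29 at ZT7, 10.06 and 10.42 at ZT11, 9.69 and 9.36 at ZT15, 8.35 and 8.54 at ZT19, and 7.68 and 7.53 at ZT23. In IP they were 6.75 and 7.46, 9.58 and 9.71, 10.45 and 10.58, 9.36 and 9.65, 8.13 and 8.31, and 6.45 and 6.56 at the same times. Usp8 was highest at ZT11 in both fractions, and no array of ZT11 overlapped one of another time. The fitted peak-to-trough difference was 2.56 in INPUT and 3.99 in IP, with peaks at ZT11.4 and ZT11.5, the latest peaks among the 10 largest rhythms.

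At the other end of the light phase stood CG13305, which the sources used here do not describe. Its INPUT level was 9.31 at ZT3, 7.59 and 7.45 at ZT7, 6.56 and 7.04 at ZT15, and 8.48 and 8.57 at ZT23. Its IP level was 8.29 and 8.26 at ZT3, 5.61 and 5.63 at ZT15, and 7.62 and 7.13 at ZT23. The ZT3 arrays were the highest of all times in both fractions, and the peak-to-trough difference was 2.14 in INPUT and 2.48 in IP. CG42329 also peaked near dawn, with INPUT levels of 6.37 at ZT3 and 6.66 and 6.71 at ZT23, and its peak-to-trough difference was 2.22 in INPUT and 1.31 in IP. Its mean IP level was 3.78, among 9 members with an IP mean under 5. A second CG42329 probe set, with an INPUT mean of 4.64, differed by 0.44 in INPUT and 0.14 in IP and did not meet the rule.

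**Figure D2:**
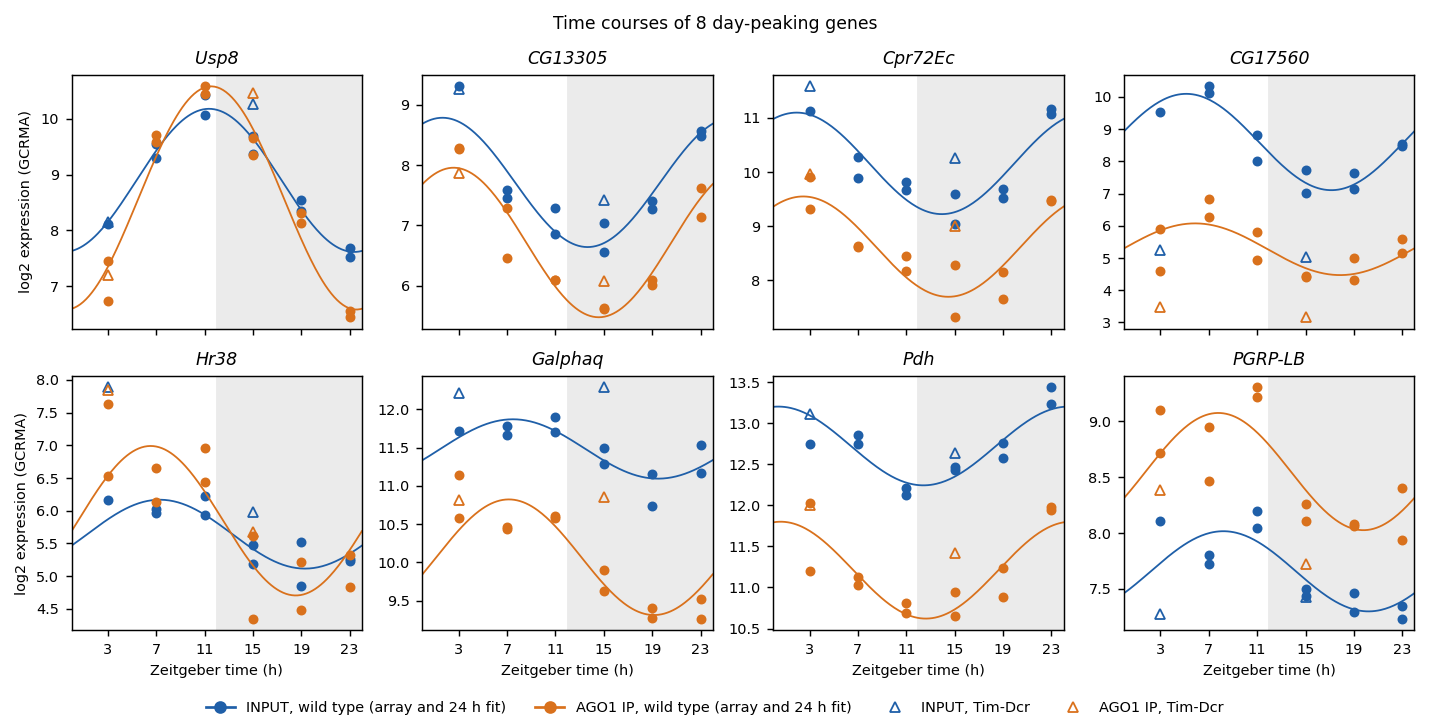
Deposited log2 levels of 8 of the genes against Zeitgeber time in hours, with INPUT in blue and IP in orange. Filled circles are single wild-type arrays, lines are the fitted 24 h curves, open triangles are the single Tim-Dcr arrays and grey marks the dark phase. Usp8 peaks at ZT11, CG13305 and Cpr72Ec at ZT23 to ZT3, and the Tim-Dcr triangles of CG17560 lie below every wild-type INPUT array.

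Among 4 genes of vision, Pdh makes the photoreceptor dehydrogenase of the retinoid cycle, Galphaq the G protein subunit that links rhodopsin to phospholipase C, trpl a light-activated cation channel and laza a lipid phosphatase of the photoreceptor. Pdh reached 13.24 and 13.43 in INPUT at ZT23 against 12.21 and 12.13 at ZT11, and 11.98 and 11.94 in IP at ZT23 against 10.69 and 10.81 at ZT11. It was thus highest around dawn, with laza (fitted INPUT peak at ZT1.55), while trpl peaked at ZT4.34 and Galphaq at ZT7.48. Galphaq was the member of this group with the largest IP rhythm, 1.51 against 0.78 in INPUT. Its IP levels were 10.58 and 11.14 at ZT3, 10.61 and 10.58 at ZT11, 9.27 and 9.40 at ZT19, and 9.27 and 9.52 at ZT23, and no array of ZT3, ZT7 or ZT11 fell below one of ZT15, ZT19 or ZT23. The other 2 probe sets of Galphaq showed INPUT differences of 0.29 and 0.18 and did not meet the rule. Of 26 listed phototransduction and visual pigment genes, 17 had a probe set, and 3 of these (Pdh, trpl and Galphaq) met the rule.

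The cuticle genes peaked early. Cpr72Ec, Cpr67B and Cpr73D make chitin-binding structural proteins and Gasp a chitin-binding protein of the extracellular matrix, and their INPUT peaks lay at ZT1.94, ZT0.70, ZT1.36 and ZT3.67. In INPUT, Cpr72Ec stood at 11.12 at ZT3 and at 11.17 and 11.08 at ZT23, against 9.04 and 9.60 at ZT15. In IP it stood at 9.32 and 9.91 at ZT3 and at 9.47 and 9.49 at ZT23, against 7.32 and 8.28 at ZT15. The ZT3 and ZT23 arrays of Cpr72Ec were the highest in each fraction without overlap, and its peak-to-trough difference was 1.87 in INPUT and 1.85 in IP. Pdh and Cpr72Ec lie on the same arm, 3L, with 4 annotated genes between them in the Release 6 plus ISO1 MT gene table, NimC3 and hll lie on 2L with 3 between them, and CG11594 and CG1136 on 3L with 9. Arm 3L held 16 of the 52 genes, or 30.8%, against 19.5% of all probe sets with 1 symbol.

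The 8 metabolic enzymes were spread over the light phase, from Nagk, a sugar amine kinase, at ZT0.68 to Sod3, the extracellular superoxide dismutase, at ZT9.04. CG17560, of the fatty acyl-CoA reductase family, had the largest INPUT difference of all members, 2.99, against 1.61 in IP. Its INPUT levels were 9.53 at ZT3, 10.13 and 10.34 at ZT7, 8.82 and 8.0 at ZT11, 7.72 and 7.03 at ZT15, 7.63 and 7.14 at ZT19, and 8.49 and 8.55 at ZT23. Its IP levels were 5.89 and 4.60 at ZT3, 6.28 and 6.82 at ZT7, 4.42 and 4.43 at ZT15, and 5.01 and 4.31 at ZT19. The ZT7 arrays were the highest in each fraction, but the IP arrays of ZT3 spanned most of the range of the other times. Hpd, which breaks down tyrosine, differed by 1.06 and 1.02, and the others, CG9743 (a desaturase), hll (an acyl-CoA synthetase), CG31075 (an aldehyde dehydrogenase) and CG11594 (a carbohydrate kinase), by 0.62 to 0.94 in INPUT. None of 25 carbohydrate genes with a probe set and none of 22 lipid genes from separate lists met the rule.

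Hr38, the fly member of the NR4A nuclear receptors and a gene induced by neuronal activity, differed more in IP (2.29) than in INPUT (1.05). Its IP levels were 6.53 and 7.63 at ZT3, 6.13 and 6.65 at ZT7, 6.44 and 6.97 at ZT11, 4.35 and 5.61 at ZT15, 4.47 and 5.22 at ZT19, and 4.84 and 5.32 at ZT23. Every light-phase IP array of Hr38 lay above every dark-phase one, and a second probe set of low level (INPUT mean 4.70) did not meet the rule. Buffy, of the Bcl-2 family, and Sidpn, a basic helix-loop-helix factor like deadpan, peaked in INPUT at ZT8.49 and ZT8.58. E(spl)m2-BFM, a Bearded family gene of the Notch pathway, peaked at ZT9.98, and blow, which acts in myoblast fusion, at ZT3.94.

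The receptors, transporters and defence genes ran from the glial transporter rumpel at ZT0.18 and the sex peptide receptor SPR at ZT2.77 to PGRP-LB at ZT8.20 and the transporter CG31106 at ZT8.57. NimC3, a phagocytic receptor of blood cells, peaked at ZT3.65, the olfactory receptor Ir75a at ZT5.71 and the ABC transporter CG31121 at ZT5.93. Their peak-to-trough differences in INPUT lay between 0.61 and 1.35, the highest being that of Ir75a. The remaining 22 genes, all with CG numbers, were given no role.

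The arrays measured a mix of cell types, so fewer cells of a type and less RNA per cell cannot be told apart. Summed levels of marker lists for neurons, glia, fat body, muscle, hemocytes, midgut proteases and the male reproductive tract were fitted in the same way in wild-type arrays. None reached an R squared of 0.5, the highest being 0.43 for glia in INPUT.

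Whether these mRNAs were over- or under-represented with AGO1 is a question their rhythm did not settle, since the mean over 6 times is separate from the cosine terms, although the rule set a minimum on the INPUT mean. Relative to the array median, 19 of the 52 were higher in IP, 20 were lower and 13 did not pass the test. Among all 15517 probe sets 26.3% were higher and 33.2% lower, and the median was 0.06 for the 52 and -0.04 for all. The members had to pass a minimum INPUT mean that the other probe sets did not, so the sets are not alike. Among the 10054 probe sets with a log2 value above 6 in at least 3 arrays, 3305 were higher and 4330 lower, with 16 and 19 of the members. The difference in shares was not tested. The test was limma on 23 wild-type arrays at a Benjamini-Hochberg adjusted p of 0.05. On deposited values, which keep the general offset, 2 members were higher (3.63% of all) and 43 lower (93.1% of all), so each direction below is relative to the array median.

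PGRP-LB, a peptidoglycan amidase that dampens the Imd immune pathway, ran in INPUT from 7.24 through a median of 7.50 to 8.20, and in IP from 7.94 through 8.43 to 9.30. After centring, every IP array of PGRP-LB lay above every INPUT array, and it was 4.37-fold higher in IP (log2 2.13, SE 0.09, limma adjusted p = 3.01e-12). E(spl)m2-BFM ran from 5.13 through 5.59 to 6.21 in INPUT and from 6.02 through 6.54 to 6.83 in IP, without overlap after centring, and was also 4.37-fold higher (log2 2.13, SE 0.08, limma adjusted p = 1.77e-12). These were the 2 members called higher on deposited values too. SPR was the only other member whose centred arrays did not overlap (2.46-fold higher, log2 1.30, SE 0.09). A second SPR probe set of low level (INPUT mean 3.30) did not meet the rule. Every centred IP array lay above every INPUT array for 3 of 52 members, against 12.7% of all probe sets. The rhythm that the rule required widens a member's range over the times and makes overlap more likely, so these shares are not alike. Hr38 (log2 1.44, SE 0.17), CG31106 (1.29, SE 0.15), CG13856 (1.27, SE 0.09), laza (1.19, SE 0.11) and CG1136 (1.16, SE 0.11) completed the 8 highest.

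CG17560 was lowest with AGO1, 4.10-fold below INPUT (log2 -2.04, SE 0.16, limma adjusted p = 1.01e-08). Its IP arrays ran from 4.31 to 6.82 and its INPUT arrays from 7.03 to 10.34, with overlap only after centring. CG9259 followed at 3.41-fold lower (log2 -1.77, SE 0.16), then Hpd (-1.34, SE 0.13), Cpr67B (-1.27, SE 0.10), CG7409 of the small heat shock protein family (-1.02, SE 0.09), CG9119 (-0.98, SE 0.15), CG11594 (-0.95, SE 0.10) and CG15155 (-0.87, SE 0.13). No member had every centred IP array below every INPUT array, against 11.1% of all probe sets. The required rhythm limits this comparison in the same way, and it is not read as a result about AGO1.

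By role, 1 metabolic enzyme (CG9743) was higher and 5 of 8 were lower. Of 7 regulators 4 were higher and 1 was lower, and of 7 receptors, transporters and defence genes 4 were higher and 2 lower. Among all probe sets 26.3% were higher and 33.2% lower. The groups are small, genes were named by role after their values were seen, and differences between roles were not tested. Of the vision genes laza was higher and trpl (log2 -0.59, SE 0.07) and Pdh (-0.22, SE 0.09, limma adjusted p = 0.0464) were lower. Galphaq differed by -0.16 (SE 0.08, limma adjusted p = 0.118) and passed with same-numbered INPUT and IP arrays as a block (-0.21, limma adjusted p = 0.00530). Among the cuticle genes Cpr73D (0.80, SE 0.08) and Gasp (0.63, SE 0.11) were higher and Cpr67B lower, and Cpr72Ec passed as lower only in some settings, the block among them (-0.33, limma adjusted p = 0.000191, against -0.28 and 0.0584 without it). The call for Pdh was lost in 18 of 29 alternatives. By peak time, 7 higher and 7 lower stood among the 20 genes peaking from ZT0 to ZT4. There were 5 and 7 among the 16 of ZT4 to ZT8, and 7 and 6 among the 16 of ZT8 to ZT12. These counts were not tested against the 26.3% and 33.2% of all probe sets.

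**Figure D3:**
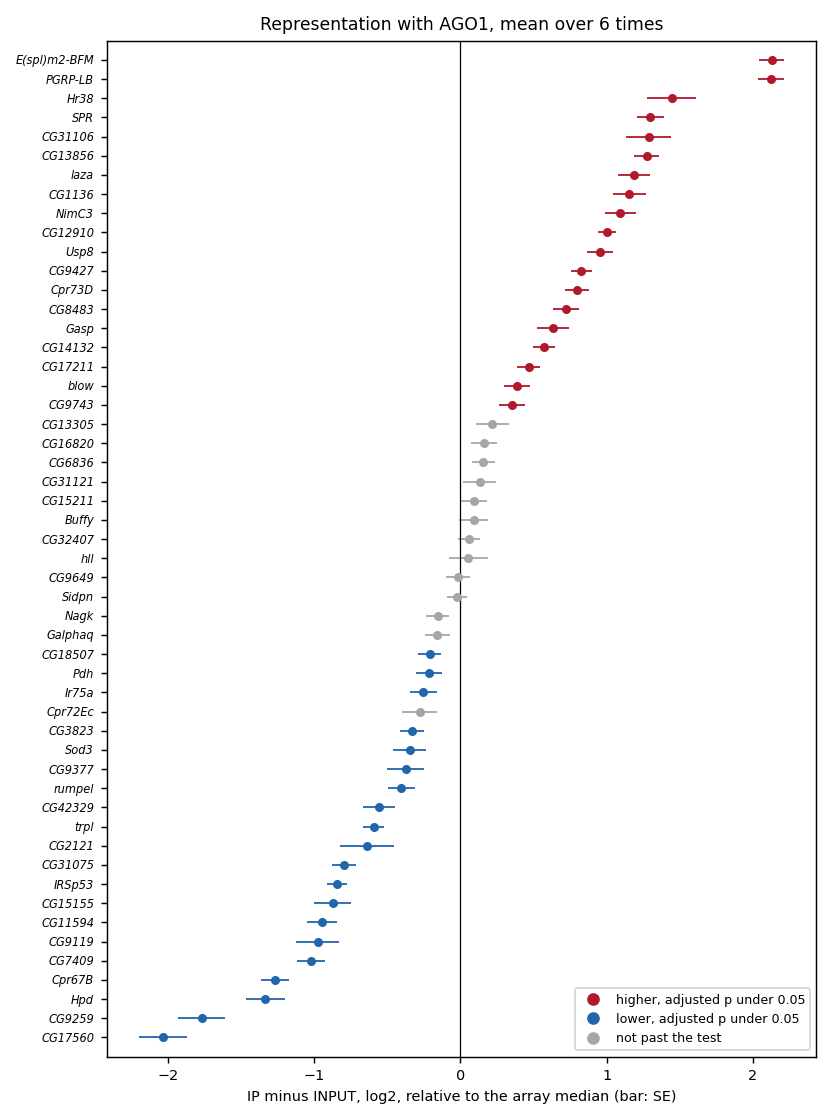
Mean log2 difference of IP minus INPUT over 6 times for each of the 52 genes, on arrays centred on their medians, with bars of 1 SE. Red and blue points passed limma at an adjusted p of 0.05 as higher (19) and lower (20) and grey points (13) did not, and values run from -2.04 for CG17560 to 2.13 for E(spl)m2-BFM.

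The Tim-Dcr arrays, which the rule did not use, give a separate view of the day difference through ZT3 minus ZT15. With 1 array per time and fraction there was no Tim-Dcr replicate, and limma assumed that these lone arrays vary like the wild-type groups. Alternatives that leave out a wild-type array change that assumed spread and cannot change a Tim-Dcr difference between the times. In INPUT 3 members were higher at ZT3 (3.19% of all probe sets were) and 1 was lower (0.290% of all). In IP 3 were higher (2.39% of all) and 2 were lower (0.60% of all).

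CG42329 stood at 8.26 at ZT3 and 5.71 at ZT15 in Tim-Dcr INPUT, and at 6.16 and 3.63 in IP. It was 5.85-fold higher at ZT3 in INPUT (log2 2.55, SE 0.36, limma adjusted p = 0.000357) and higher in IP as well (2.53, SE 0.36, limma adjusted p = 0.000511), where no fold is given because the ZT15 level lay under log2 4, the level of the filter on dim probe sets. CG13305 stood at 9.26 and 7.41 in INPUT and at 7.86 and 6.08 in IP, differences of 1.85 (SE 0.33, limma adjusted p = 0.00310) and 1.78 (limma adjusted p = 0.00565). In both genes ZT3 was the high time, as it was in wild type, where the differences were 1.82 and 1.06 for CG42329 and 2.50 and 2.65 for CG13305. CG32407 was also higher, by 1.05 in INPUT (SE 0.23, limma adjusted p = 0.0132) and 0.94 in IP (limma adjusted p = 0.0333), and was lost in both fractions on centred arrays (limma adjusted p = 0.0545 and 0.0609).

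Usp8 went the other way, with 8.16 at ZT3 and 10.25 at ZT15 in INPUT and 7.21 and 10.45 in IP. It was 4.27-fold lower at ZT3 in INPUT (log2 -2.09, SE 0.29, limma adjusted p = 0.000357) and 9.45-fold lower in IP (-3.24, limma adjusted p = 9.51e-06), where wild-type differences were -1.41 and -2.40. The other late genes did not all go this way, and CG16820, with the latest INPUT peak at ZT11.7, differed by -0.09 in INPUT and 0.69 in IP without passing. CG12910, with a fitted INPUT peak at ZT10.5, was lower at ZT3 in IP (log2 -0.77, SE 0.19, limma adjusted p = 0.0422), where the wild-type difference was 0.20, a call lost in 15 of 27 alternatives, among them the replicate block (limma adjusted p = 0.0534). Hr38 stood at 7.89 and 5.99 in INPUT and at 7.85 and 5.67 in IP. Its differences of 1.90 and 2.18 (SE 0.57 each, limma adjusted p = 0.104 and 0.0539) did not pass, and passed in 4 and 7 of 27 alternatives, in IP with the replicate block (limma adjusted p = 0.0383).

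Without a threshold, 39 of the 52 were above 0 in INPUT, where 35.8% of all probe sets were, and 39 in IP, where 41.7% of all were. On centred arrays 36 and 39 were above 0, against 22.6% and 41.9% of all. By INPUT peak, 19 of 20 genes of ZT0 to ZT4 were above 0 in INPUT, then 12 of 16 for ZT4 to ZT8 and 8 of 16 for ZT8 to ZT12, and in IP the counts were 19, 11 and 9. The sign was that of wild type for 39 genes in INPUT and 40 in IP, against 57.8% and 46.8% of all probe sets. The wild-type signs come from arrays that the rule used. Of 80 probe sets that peaked at night by the same rule, 22 were above 0 in INPUT and 29 in IP. CG17560, strongly rhythmic in wild type, differed by 0.21 and 0.32, and Galphaq by -0.08 and -0.04. In Tim-Dcr, CG17560 stood at only 5.25 and 5.04 in INPUT and at 3.48 and 3.16 in IP. Its IP levels lay under log2 4, where a day difference could hardly have been measured.

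The excluded clock gene Clk was higher at ZT3 in Tim-Dcr, by 2.16 in INPUT (SE 0.20) and 1.51 in IP. Of 13 core clock genes, per, tim, vri and cwo were lower at ZT3 in both fractions, per by 2.26 and 1.89 on the log2 scale, and cry, with 0.92 and 0.96, did not pass (limma adjusted p = 0.0795 and 0.0687). In these same arrays the 12 markers of the male reproductive tract differed between the times as well. Of these markers 5 were higher at ZT3 in INPUT and 4 in IP, and their summed log2 level was 11.8 at ZT3 and 8.0 at ZT15 in INPUT. Of 9 midgut protease markers 2 were higher at ZT3 in INPUT and 1 in IP, with medians of 0.61 and 1.09, and their summed log2 level was 9.60 against 8.57 in INPUT and 8.28 against 7.14 in IP. The part of both lists in the members' day differences was not tested.

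**Figure D4:**
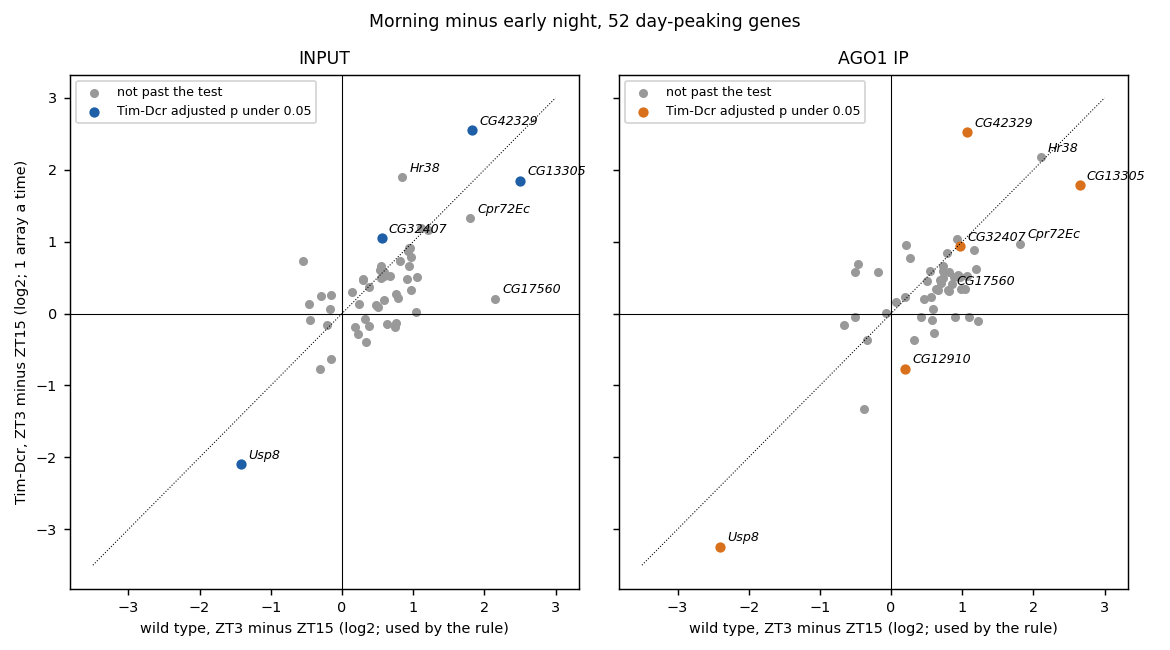
Log2 difference of ZT3 minus ZT15 in Tim-Dcr (vertical, 1 array per time) against wild type (horizontal) for the 52 genes, for INPUT on the left and IP on the right. Coloured points passed limma at an adjusted p of 0.05 in Tim-Dcr, the dotted line marks equal differences, and 39 points lie above 0 in each panel.

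The level in Tim-Dcr against wild type was compared over ZT3 and ZT15 together, where the 24 h curve cancels because the times are 12 h apart. In INPUT 23 members were higher in Tim-Dcr (30.8% of all probe sets were) and 5 were lower (16.8% of all), with a median of 0.42 against 0.22 for all. In IP 20 were higher (27.2% of all) and 9 lower (16.9% of all), with medians of 0.32 and 0.17. Centring the arrays raised the medians of all probe sets to 0.39 and 0.49. The members' counts became 32 higher and 4 lower in INPUT (48.6% and 14.9% of all) and 33 and 5 in IP (59.3% and 12.4% of all).

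CG17560 stood at 5.25 and 5.04 in Tim-Dcr INPUT, at ZT3 and ZT15, below all 11 wild-type INPUT arrays, and at 3.48 and 3.16 in IP, below all 12 wild-type IP arrays. It was 9.88-fold lower in INPUT (log2 -3.30, SE 0.38, limma adjusted p = 4.00e-06) and lower in IP (-1.52, SE 0.35, limma adjusted p = 0.00297). CG9259 was lower by 3.04 and 1.70 on the log2 scale, CG15155 by 1.82 and 1.32, and CG31106 by 1.67 in INPUT (SE 0.35, limma adjusted p = 0.00131) and also in IP (limma adjusted p = 8.54e-06). In Tim-Dcr IP both arrays of CG17560, CG9259, CG15155, CG31106, hll and Ir75a lay under log2 4, so no fold is given for them there. PGRP-LB was lower by 0.44 and 0.49, calls lost in 13 of 26 alternatives in INPUT and 3 of 27 in IP, centred arrays among them (limma adjusted p = 0.243 and 0.40). In IP hll, Ir75a, NimC3 and CG7409 were lower too, by 0.92, 0.83, 0.60 and 0.46, and of these Ir75a alone passed on centred arrays. The call for CG7409 was lost in 18 of 27 alternatives.

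In INPUT the largest increase was that of E(spl)m2-BFM, with 7.37 and 7.30 in Tim-Dcr INPUT and 7.41 and 7.40 in IP, above every wild-type array of its fraction. It was 3.18-fold higher in INPUT (log2 1.67, SE 0.17, limma adjusted p = 1.16e-06) and 1.79-fold in IP (0.84, SE 0.16, limma adjusted p = 0.000633). CG13856 was higher by 1.60 and 1.63, CG42329 by 1.53 and 1.12, CG3823 by 1.50 and 1.48, CG12910 by 1.35 and 0.73, and CG14132 by 1.34 and 0.63. Cpr73D (1.33 and 1.50) and CG16820 (1.30 and 1.50) were among the highest in IP. Of the vision genes, Galphaq was higher by 0.69 in INPUT (limma adjusted p = 0.00576) and 0.52 in IP (limma adjusted p = 0.0212), while trpl differed by -0.11 (limma adjusted p = 0.539) in INPUT.

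The head samples also differed in markers of other tissues between these genotypes. All 12 markers of the male reproductive tract were lower in Tim-Dcr in each fraction, with medians of -4.98 in INPUT and -4.25 in IP, and their summed log2 level was 14.8 to 15.4 in wild-type INPUT and 8.0 to 11.8 in Tim-Dcr. All 9 midgut protease markers were lower in INPUT and 8 of 9 in IP, with medians of -3.26 and -3.65, and all 4 tested hemocyte markers were higher, with medians of 1.02 and 0.93. Fat body markers summed to 16.1 and 16.2 in Tim-Dcr INPUT against 15.6 to 15.9 in wild type, with 3 of 6 higher in INPUT and 4 in IP. Glia markers summed to 13.9 on both Tim-Dcr INPUT arrays against 13.3 to 13.6, with 5 of 7 higher in INPUT and 2 in IP, and neuron markers to 13.2 and 13.4 against 12.6 to 13.1, with 3 of 6 and 2 higher. In IP the fat body and neuron sums also lay above every wild-type array, and the glia sums did not. Muscle markers summed to 13.7 and 13.5 in Tim-Dcr INPUT, inside the wild-type range of 13.4 to 14.2. Their IP sums also lay inside the wild-type range. The part of these lists in the members' differences was not tested.

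**Figure D5:**
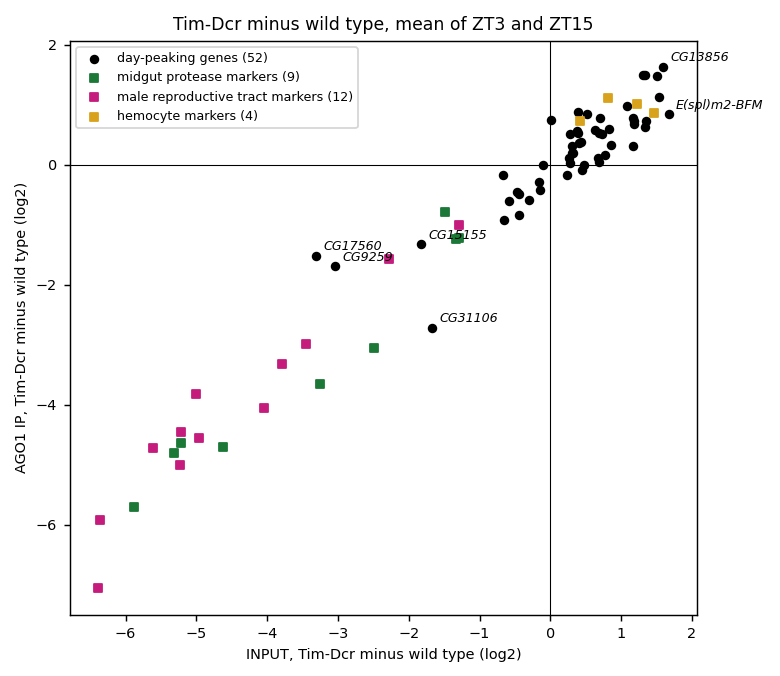
Log2 difference of Tim-Dcr minus wild type, as the mean of ZT3 and ZT15, in IP (vertical) against INPUT (horizontal). Black points are the 52 genes and coloured squares are single marker genes of the midgut, the male reproductive tract and hemocytes, and CG17560, CG9259, CG15155 and CG31106 lie apart from the other black points toward the lower left.

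The difference in enrichment between Tim-Dcr and wild type was tested as an interaction, on deposited values with and without the block. Without pairing INPUT and IP arrays, no member passed in either direction with limma (0.796% of all probe sets were higher and 1.95% lower). On centred arrays 28 of the 52 estimates were above 0, and the median was 0.01 against 0.13 for all probe sets. On the deposited values of the main fit 17 were above 0, and the medians were -0.13 and -0.01. The widest estimates were 1.79 for CG17560 (SE 0.52, limma adjusted p = 0.0716), 1.34 for CG9259 (SE 0.51) and -1.05 for CG31106 (SE 0.48). With same-numbered INPUT and IP arrays as a block, 3 members were higher (5.19% of all) and 8 lower (8.33% of all). The higher were CG17560 by 1.66 (limma adjusted p = 0.0111), CG9259 by 1.33 and Cpr67B by 0.75. The Tim-Dcr IP levels of CG17560 and CG9259 lay under log2 4, where a decrease as large as that in INPUT could not have been measured. The lower were led by CG31106, also under log2 4 in Tim-Dcr IP, at -1.19, Gasp at -0.85 and E(spl)m2-BFM at -0.84 (limma adjusted p = 0.00846), followed by CG14132, CG12910, Nagk, CG17211 and CG9427 at -0.68 to -0.54.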

How the data were processed

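RNA of head extract (INPUT) and of AGO1 immunoprecipitate (IP) was measured on 27 Affymetrix arrays. The authors deposited log2 values, 1 per probe set and array. GCRMA is the tool named in the submitters' processing notes, and no source used here gives its version or says which arrays it was run on together. Near-equal means within each fraction and different means between them were seen in the values. Wild-type IP minus INPUT was therefore taken on arrays centred on their median over the probe sets kept. The main fits with Tim-Dcr arrays, the enrichment difference among them, used deposited values. Of 18952 probe sets, 183 controls were left out, and of the rest 402 carried several symbols and 4720 none in the annotation table. All 52 genes matched the RefSeq gene table. Of the 52 genes, 6 had 8 further probe sets with 1 symbol, and none of these met the rule.

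Tests used limma 3.58.1 in R 4.3.3 (lmFit, eBayes, Benjamini-Hochberg over all probe sets kept, adjusted p of 0.05), on probe sets with a log2 value above 4 in at least 3 arrays: 15517 over the wild-type arrays alone and 15835 with the Tim-Dcr arrays added. Each main fit gave every fraction, genotype and time its own mean and did not pair INPUT with IP arrays, which left 11 residual degrees of freedom. Python 3.11.15 with pandas 2.3.3 and numpy 2.4.6 made the tables, and matplotlib 3.10.9 the plots. The fits were tested on simulated data. The number of arrays limits the precision, and p-values measure the spread between these samples.

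INPUT and IP arrays that share a number deviated together from their groups. The correlations were 0.428 (ZT7), 0.400 (ZT11), 0.676 (ZT15), 0.430 (ZT19) and 0.384 (ZT23). The main fits, which gave every call for which no other setting is named, did not use this pairing. Only in separate fits were the title's numbers taken as pairing the samples and entered as a block. The Tim-Dcr titles carry no number, and there the block joined INPUT and IP of the same time, a pairing that no label gives. Fits with that block, other normalizations, other filters and each wild-type array left out were run beside the others. Genes were named by a rule: the 10 largest rhythms by the smaller of both fractions, the 8 highest and 8 lowest enrichments, up to 6 in each direction past each Tim-Dcr test, and the genes nearest the threshold. Others, such as the vision and cuticle genes, were named by role after their values were seen. The members and lists were chosen with earlier results of these data known, and lists partly come from an earlier pass over them. No reference sequence was used here.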

Additional observations from a re-analysis of the deposited data

How the results depend on the processing

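Membership moved with the thresholds: a peak-to-trough minimum of 0.8 left 24 genes and of 0.5 gave 77, an R squared of 0.6 left 33 and of 0.4 gave 63, an INPUT mean above 6 left 43, and centred arrays gave 53. With 1 wild-type array left out in turn it ran from 44 to 62. On deposited values 2 members were higher and 43 lower with AGO1, and 21 estimates above 0 on centred arrays were below 0, because the general offset is kept: Buffy -1.17, CG1136 -0.11, CG12910 -0.26, CG13305 -1.05, CG14132 -0.69, CG15211 -1.17, CG16820 -1.10, CG17211 -0.80, CG31121 -1.13, CG32407 -1.21, CG6836 -1.11, CG8483 -0.54, CG9427 -0.44, CG9743 -0.91, Cpr73D -0.47, Gasp -0.63, NimC3 -0.17, Usp8 -0.31, blow -0.88, hll -1.21 and laza -0.078. In IP, 1 member was lower at ZT3 than at ZT15 in Tim-Dcr on centred arrays, with trend and robust eBayes and with the replicate block, against 2; the cause was not tested. For Tim-Dcr minus wild type in IP, centred arrays gave 33 higher and 5 lower, by the lower Tim-Dcr medians. The replicate block gave 3 higher and 8 lower in the enrichment difference. Where the block changed the call of a gene with AGO1 or between the times it is given beside it, or the gene (CG13305, CG16820, CG31121 and Nagk) lay between -0.19 and 0.22; CG7409 was also called lower in Tim-Dcr INPUT with it (-0.46).

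Leaving out 1 wild-type array gave 19 to 21 higher and 18 to 23 lower with AGO1. For ZT3 minus ZT15 in Tim-Dcr it gave 3 to 5 higher and 1 lower in INPUT, and 3 to 4 higher and 1 to 2 lower in IP. The count of 5 came without either ZT15 array of INPUT or of IP, and 1 lower in IP came without any array of ZT7 or ZT23, or any IP array of ZT11 or ZT19. For Tim-Dcr minus wild type it gave 21 to 25 higher and 4 to 6 lower in INPUT, and 14 to 24 higher and 8 to 9 lower in IP, with 14 without the first IP array of ZT3. For the enrichment difference it gave 0 to 1 higher and 0 to 3 lower, with 3 lower without the second INPUT array of ZT15, 1 lower without either INPUT array of ZT19 or the first IP array of ZT3, and 1 higher without either INPUT array of ZT15 or the first IP array of ZT3. Comparisons of Tim-Dcr with wild type in INPUT could not be fitted without the lone INPUT array at ZT3, and enrichment without it used 5 times. Signal near background limits the 9 genes with an IP mean under 5 and the Tim-Dcr IP levels under log2 4, and every Tim-Dcr value rests on single arrays. Leaving out wild-type arrays does not show how the Tim-Dcr values would vary.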

Other observations

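Among the other genes with large daily differences, CG2121 stood at 8.75 and 8.67 in INPUT at ZT11 and at 6.23 and 6.91 at ZT23, a peak-to-trough difference of 1.92 in INPUT and 1.73 in IP. Its same-time IP arrays differed most of all members, with an SD of 0.61. CG9377, of the serine protease family, differed by 1.57 and 1.50 with INPUT values of 9.43 and 9.12 at ZT11 against 7.20 and 7.78 at ZT19. CG9259 differed by 1.67 and 1.39, CG15155 by 1.37 and 1.16 and CG12910 by 1.17 and 1.80. CG9259 and CG15155 had like courses in INPUT: at ZT11 the first replicate stood at 9.30 and 7.76 and the second at 7.74 and 6.73.

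The 6 excluded genes had the same kind of course. Clk differed by 1.52 in INPUT and 1.77 in IP with peaks at ZT1.32 and ZT2.17, and cry, the blue-light receptor of the clock, by 1.61 and 1.23 with peaks at ZT4.45 and ZT4.68. Of the detoxification genes Ugt35B1 differed by 1.70 and 1.74 and GstZ2 by 1.40 and 1.19. A further 12 probe sets met the amplitude and fit conditions in both fractions but peaked by day in one and by night in the other.

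Over the 80 night-peaking probe sets, 34 were higher and 20 lower with AGO1 relative to the array median, with a median of 0.06, which equals the median of the day-peaking genes at this rounding.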
